A study of Mus musculus with 12 samples.

Results

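Growth arrest genes and immediate early genes were followed through the livers of mice fed graded amounts of a fish oil. The set held 10 genes of the 49398 in the deposited gene table: the 3 Gadd45 genes, 3 genes linked to the tumour suppressor p53 (Cdkn1a, Mdm2 and Btg2), and Myc, Jun, Fos and Egr1. Members were given by gene name, and all 10 were among the 13814 genes that passed the filter on low counts.

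The study measured liver RNA by sequencing in wild-type C57BL/6J mice. The animals, 9 months old when feeding began, ate AIN-93G chow for 8 weeks and were fasted for 5 h before the liver was taken under tribromoethanol. The control group had plain chow, and the 1% and 5% groups had that share of it, by weight, as a fish oil concentrate enriched in VLCPUFA, polyunsaturated fatty acids of very long chain. Each diet had 4 livers, from 2 females and 2 males, each with its own animal number; the design text of the series gives 6 per diet, and the other animals were not analysed here. Estimated reads per library ran between 5291385 and 15674130. Summed levels of 11 hepatocyte markers lay at 127370 to 195800 CPM (reads scaled to library size) in control livers, 120360 to 154470 in 1% livers and 120050 to 153560 in 5% livers, and no marker of any liver cell type on the lists was at 0 in all livers.

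GADD45 proteins are small acidic proteins induced by growth arrest and DNA damage that bind partners such as PCNA, the kinase MTK1 and p21. Cdkn1a and Mdm2 are textbook targets of p53: the first blocks cyclin-dependent kinases and the second ubiquitinates p53 itself. Immediate early genes such as Fos, Jun, Egr1 and Myc encode transcription factors that cells make within minutes of a stimulus without new protein synthesis, and in liver they are known for their bursts after partial hepatectomy and under stress.

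The promoters of Cdkn1a, Gadd45a, Gadd45b and Btg2 are shown here from RefSeq's transcript starts on GRCm38.p6, with 250 bases before and 50 after the start. No window was used for Myc or Egr1, so their promoters were not searched. Capitals mark matches on either strand to motifs searched by script: the E-box CACGTG bound by MYC with MAX and by clock factors, the cyclic AMP element TGACGTCA, the AP-1 site TGACTCA, the variant TGACATCA known from the Jun promoter, the p53 decamer (the unit of which a p53 element holds a pair) and the CArG box of serum response factor. Cdkn1a had windows at both of its starts, the upstream one at chr17:29090729-29091028, plus strand, and the downstream one at chr17:29093519-29093818, plus strand. The Gadd45a window was chr6:67037358-67037657, minus strand, that of Gadd45b chr10:80929841-80930140, plus strand, and that of Btg2 chr1:134079106-134079405, minus strand.
Cdkn1a upstream start: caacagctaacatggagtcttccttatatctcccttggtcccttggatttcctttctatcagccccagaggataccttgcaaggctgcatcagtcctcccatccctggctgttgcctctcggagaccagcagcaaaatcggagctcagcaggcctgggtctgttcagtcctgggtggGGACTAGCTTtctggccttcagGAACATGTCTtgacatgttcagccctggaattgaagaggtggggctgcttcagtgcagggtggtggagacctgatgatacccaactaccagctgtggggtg
Cdkn1a downstream start: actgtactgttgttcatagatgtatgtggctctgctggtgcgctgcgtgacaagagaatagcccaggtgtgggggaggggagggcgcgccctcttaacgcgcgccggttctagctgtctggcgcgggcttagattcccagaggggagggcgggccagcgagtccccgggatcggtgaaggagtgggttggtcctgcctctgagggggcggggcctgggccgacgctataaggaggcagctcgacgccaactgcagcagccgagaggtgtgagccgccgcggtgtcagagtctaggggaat
Gadd45a: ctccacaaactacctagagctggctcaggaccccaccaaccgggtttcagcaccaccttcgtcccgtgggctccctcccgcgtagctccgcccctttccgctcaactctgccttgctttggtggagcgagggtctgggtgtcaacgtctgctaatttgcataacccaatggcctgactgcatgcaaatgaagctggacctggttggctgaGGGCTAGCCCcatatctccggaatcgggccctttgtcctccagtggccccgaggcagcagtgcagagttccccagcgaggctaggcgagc
Gadd45b: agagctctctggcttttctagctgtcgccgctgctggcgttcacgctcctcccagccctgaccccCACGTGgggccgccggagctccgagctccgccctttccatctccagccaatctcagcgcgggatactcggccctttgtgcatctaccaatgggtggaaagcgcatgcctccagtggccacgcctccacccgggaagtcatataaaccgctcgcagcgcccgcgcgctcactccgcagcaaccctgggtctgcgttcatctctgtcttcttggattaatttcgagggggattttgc
Btg2: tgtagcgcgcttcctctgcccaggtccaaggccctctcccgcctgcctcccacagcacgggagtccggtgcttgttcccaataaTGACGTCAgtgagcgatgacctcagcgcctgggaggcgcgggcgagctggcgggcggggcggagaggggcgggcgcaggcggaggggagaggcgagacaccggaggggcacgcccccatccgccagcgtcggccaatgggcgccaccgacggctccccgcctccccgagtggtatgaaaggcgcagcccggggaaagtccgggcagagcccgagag

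The upstream Cdkn1a window held p53 decamers that began at -73 and -51 from the start, and the downstream one held no match to any of the 6 motifs. Gadd45a had a p53 decamer at -40 and Mdm2 at -186, Gadd45b and Gadd45g had E-boxes at -185 and -142, Btg2 had the cyclic AMP element at -166, and Jun had TGACATCA at -45. The Fos window had no match. No marked match overlapped another. Among all 32851 windows of this length, 8.36% held a p53 decamer, 7.15% an E-box, 5.2% the AP-1 site, 3.62% TGACATCA, 1.79% the cyclic AMP element and 1.63% a CArG box, so these matches are a description of the letters only. The deposited transcript table gave the use of the Cdkn1a starts: the coding transcript that begins at the downstream start held 5330 of the 5526.1 estimated reads of the gene over the 12 livers (96.5%), and the coding transcript that begins at the upstream start was listed at 0 in every liver. A noncoding transcript that begins just before the upstream start held 1 estimated read in all. The other coding transcripts begin 12 and 4131 bases after the downstream start and held 107 reads (1.94%) and 88.1 reads (1.59%). Starts are those of the GENCODE M21 annotation on the same build, and reads shared by overlapping transcripts were divided by estimation.

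The first question was what the 5% oil diet did to these genes. Gadd45a, Gadd45b and Myc were higher in 5% livers than in control livers, and no member was lower by the test, so 3 of 10 members were called. The share called over all genes tested was 2.46% (1.19% higher and 1.27% lower). The test was edgeR's quasi-likelihood test with sex in the model and Benjamini-Hochberg adjustment over all 13814 genes, with a threshold of 0.05. At an unadjusted p below 0.05 there were 7 of 10 members, against 14.6% of all genes. The median log2 fold change of the members was -0.65, against 0.01 over all genes. The members were chosen with earlier results of these data known, so these counts are a description and no test of the set. Because these are whole livers, fewer cells of a type and less RNA per cell cannot be told apart. Nothing in the labels says how the animals were housed or which livers were processed together.

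Values below are CPM scaled by TMM factors, given within each diet for the females and then the males, by animal number. The females were N979 and N980 on control, N983 and N984 on 1% and N987 and N988 on 5%. The males were N967 and N968, N971 and N972, and N975 and N976 on the same diets.

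Gadd45a (ENSMUSG00000036390), the damage-inducible founder of the family, showed the greatest log2 fold change of the 10 genes in this comparison. Gadd45a had 2.36, 1.80, 0.784 and 1.07 CPM in control livers, 3.08, 0.937, 5.04 and 3.94 in 1% livers and 25.6, 24.7, 4.28 and 14.0 in 5% livers. Every 5% liver lay above every control liver, and the male N975 was the lowest of the 5% group, inside the range of the 1% livers. The means were 17.2 ± 10.1 CPM in 5% livers and 1.5 ± 0.712 in control livers (SD, n = 4 each). On the log2 scale the difference was 3.48 ± 0.58 (SE, edgeR adjusted p = 0.00967), an 11.1-fold difference. The control values rest on 5 to 18 estimated reads per liver, against 37 to 410 in 5% livers, so the fold is imprecise. Without the control female N980 the log2 fold change was 3.52 with an adjusted p of 0.054. Gadd45a was also the 1 member whose slope over the percentage of oil passed the test, at 0.64 ± 0.10 log2 units per percent (SE, edgeR adjusted p = 0.00739), where 2.23% of all genes did so. The slopes of Gadd45b (0.25 ± 0.06), Myc (0.47 ± 0.13) and Btg2 (-0.41 ± 0.11) did not pass (SE, edgeR adjusted p = 0.0612, 0.0928 and 0.0726).

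Gadd45b (ENSMUSG00000015312), which in mouse liver is known as a partner of the nuclear receptor CAR, moved by less. Gadd45b had 2.18, 1.80, 0.940 and 0.967 CPM in control livers, 2.23, 6.09, 1.11 and 1.18 in 1% livers and 5.50, 6.85, 1.62 and 2.64 in 5% livers. The 5% females stood highest, the 5% male N975 lay inside the control range and the 5% male N976 above it, and the 1% female N984 was as high as the 5% females. Estimated reads of Gadd45b were few, at 6 to 18 per control liver and 14 to 93 per 5% liver. The mean was 4.15 ± 2.43 CPM in 5% livers and 1.47 ± 0.617 in control livers (SD, n = 4 each). This was a log2 fold change of 1.44 ± 0.35 (SE, edgeR adjusted p = 0.0478). That call sat at the threshold: it was lost without any 1 of 9 of the 12 livers (all but N983, N984 and N975), where log2 fold changes ran between 1.31 and 1.55 over all 12 omissions and adjusted p-values reached 0.161, and without sex in the model, where the adjusted p was 0.334. It was also lost with upper quartile factors (adjusted p = 0.052) and with limma voom (adjusted p = 0.0684).

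Gadd45g (ENSMUSG00000021453), the member known as a cytokine-responsive gene, did not pass. Gadd45g had 10.7, 13.7, 3.76 and 6.66 CPM in control livers, 12.7, 70.9, 18.4 and 3.16 in 1% livers and 2.69, 12, 4.40 and 2.89 in 5% livers. All 3 diets overlapped, and the 1% female N984 stood above every other liver. The log2 fold change was -0.66 ± 0.70 for 5% over control (SE, edgeR adjusted p = 0.761), with a 95% interval that ran between -2.23 and 0.90. Whether the response to 5% differed between the 3 Gadd45 genes was not tested.

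**Figure D1:**
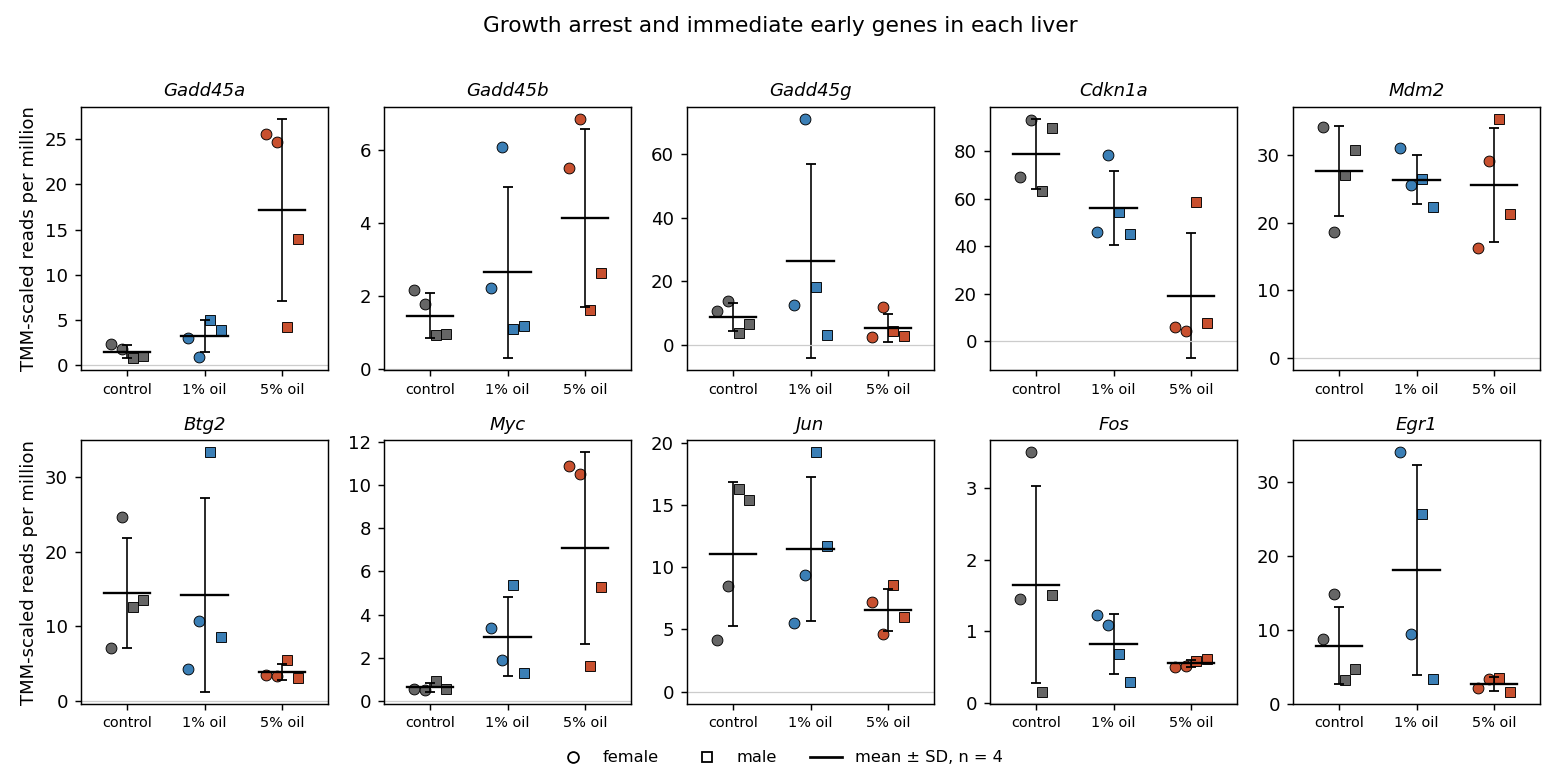
Levels of the 10 genes in each liver, in TMM-scaled CPM (vertical axes, a separate linear scale for each gene), by diet. Circles are females, squares are males, and bars give the mean and SD of 4 livers; in Gadd45a the 5% livers lie between 4.28 and 25.6, above all control livers, and in Cdkn1a 3 of the 4 livers on 5% lie between 4.42 and 7.62 while the male N975 lies at 58.5.

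Cdkn1a (ENSMUSG00000023067), which encodes the cyclin-dependent kinase inhibitor p21, was low in 3 of the 4 livers on 5%. Cdkn1a had 69.1, 92.9, 63.0 and 89.5 CPM in control livers, 46.1, 78.2, 54.2 and 45.3 in 1% livers and 6.12, 4.42, 58.5 and 7.62 in 5% livers. No 5% liver reached the lowest control liver, but the male N975 came close to it, at 58.5 against 63.0. The means were 19.2 ± 26.2 CPM in 5% livers and 78.6 ± 14.8 in control livers (SD, n = 4 each). With a log2 fold change of -2.30 ± 0.75 (SE, edgeR adjusted p = 0.165), Cdkn1a did not pass the test. Without N975 it was -3.69 with an adjusted p of 6.5e-05. DESeq2 with all 12 livers gave -2.34 with an adjusted p of 0.0278, limma voom -2.95 with 0.0255, and limma on the deposited CPM -2.66 with 0.026. In all, 5 of 23 alternatives called Cdkn1a, 1 of them among the 12 omissions of a liver. Its adjusted p-values reached 0.416 over the omissions and 0.25 over the other settings. In the authors' deposited table of 261 genes, whose contrast its columns do not name, Cdkn1a was the 1 member listed, with a log2 fold change of -1.62, a p-value of 0.0023 and an adjusted p of 0.0965.

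Btg2 (ENSMUSG00000020423), an antiproliferative protein that recruits the CCR4-NOT deadenylase and a known p53 target, was uniformly low on 5%. Btg2 had 7.07, 24.6, 12.5 and 13.5 CPM in control livers, 4.31, 10.8, 33.3 and 8.58 in 1% livers and 3.5, 3.31, 5.44 and 3.14 in 5% livers. The 5% livers lay within 3.14 to 5.44 and did not overlap the controls, while the 1% livers spread over both groups. The means were 3.85 ± 1.07 CPM in 5% livers and 14.4 ± 7.35 in control livers (SD, n = 4 each). Btg2 had a log2 fold change of -1.98 ± 0.57 (SE, edgeR adjusted p = 0.102) and was not called. It was called by DESeq2 (-1.99, adjusted p = 0.00299), without the 1% male N971 (-1.94, edgeR adjusted p = 0.0227) and with the 1% livers left out (-1.95, edgeR adjusted p = 0.0358). In all, 4 of 23 alternatives called Btg2, 1 of them among the 12 omissions of a liver. Its adjusted p-values reached 0.299 over the omissions and 0.15 over the other settings.

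Mdm2 (ENSMUSG00000020184), the ubiquitin ligase of p53, did not pass in any diet comparison. Mdm2 had 34.1, 18.7, 27.1 and 30.7 CPM in control livers, 31.1, 25.6, 26.4 and 22.4 in 1% livers and 16.2, 29.2, 35.3 and 21.3 in 5% livers. The diets overlapped throughout. The log2 fold change was -0.12 ± 0.24 for 5% over control (SE, edgeR adjusted p = 0.894), with a 95% interval between -0.64 and 0.40, and its sign turned with some omissions. Most of its estimated reads, 59.6%, were assigned to a transcript annotated for nonsense-mediated decay, and 14.5% to the leading coding transcript; isoform shares of overlapping transcripts are estimates.

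Myc (ENSMUSG00000022346), a transcription factor that drives growth and ribosome synthesis, was barely detected on the control diet. Myc had 0.544, 0.50, 0.940 and 0.537 CPM in control livers, 3.39, 1.87, 5.38 and 1.28 in 1% livers and 10.9, 10.5, 1.62 and 5.29 in 5% livers. Every 1% and every 5% liver was above every control liver, and the 5% females were the highest. The control values rest on 3 to 6 estimated reads per liver, against 14 to 174 in 5% livers, so the fold is imprecise. The means were 7.08 ± 4.45 CPM in 5% livers and 0.630 ± 0.208 in control livers (SD, n = 4 each). For Myc the log2 fold change was 3.40 ± 0.64 (SE, edgeR adjusted p = 0.0142). The adjusted p was 0.0728 without the control female N980 and 0.0502 without the control male N968.

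Jun (ENSMUSG00000052684) and Fos (ENSMUSG00000021250), the partners that make the AP-1 factor, did not pass. Jun had 4.17, 8.50, 16.3 and 15.4 CPM in control livers, 5.54, 9.37, 19.2 and 11.7 in 1% livers and 7.19, 4.64, 8.57 and 5.96 in 5% livers. The 5% livers lay inside the control range. The log2 fold change of Jun was -0.63 ± 0.30 (SE, edgeR adjusted p = 0.36), and its 95% interval was -1.28 to 0.02. Fos had 1.45, 3.5, 0.157 and 1.5 CPM in control livers, 1.23, 1.09, 0.683 and 0.296 in 1% livers and 0.50, 0.515, 0.579 and 0.615 in 5% livers. With 1 to 35 estimated reads per liver in controls and 5 to 10 in 5% livers, Fos was at the edge of detection. The log2 fold change of Fos was -1.48 ± 0.58 (SE, edgeR adjusted p = 0.247).

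Egr1 (ENSMUSG00000038418), a zinc finger factor induced by serum and growth signals, was low and even on 5% and scattered on 1%. Egr1 had 8.70, 14.8, 3.13 and 4.62 CPM in control livers, 33.9, 9.37, 25.6 and 3.25 in 1% livers and 2.06, 3.31, 3.47 and 1.60 in 5% livers. The 5% livers reached 3.47, just above the lowest control liver at 3.13, and the 1% livers ran between 3.25 and 33.9. Egr1 had a log2 fold change of -1.51 ± 0.66 for 5% over control (SE, edgeR adjusted p = 0.328).

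By position alone, Gadd45a and Myc lay wholly above the controls in the 5% group and Cdkn1a and Btg2 wholly below. Over all genes, 3.11% lay wholly above and 2.98% wholly below.

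**Figure D2:**
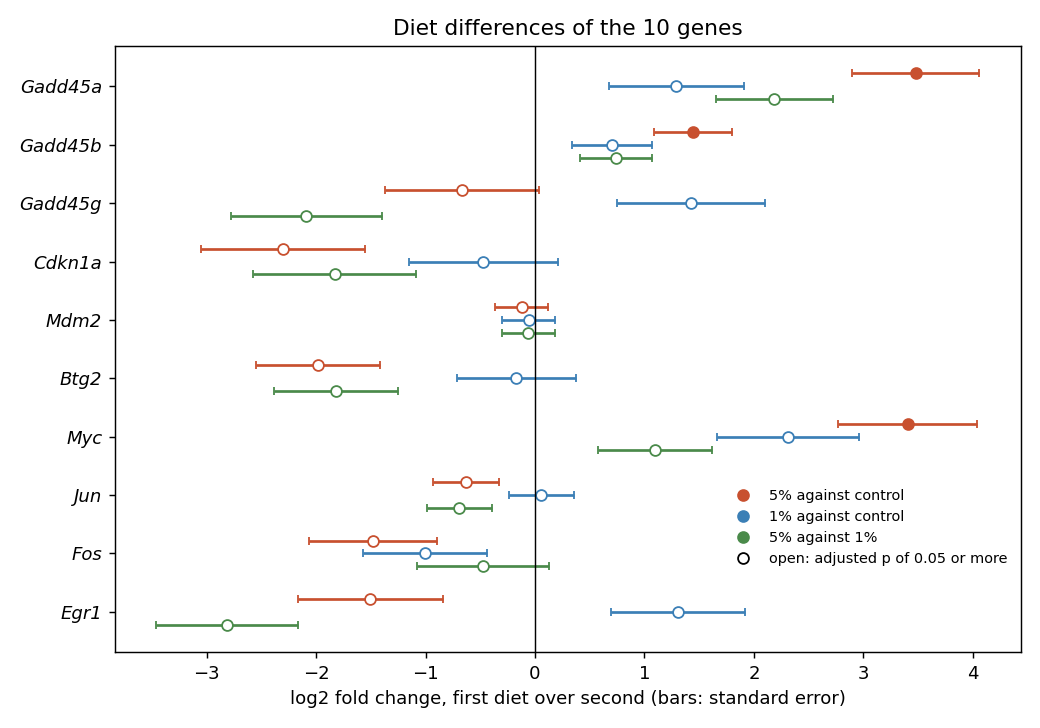
Log2 fold changes (horizontal axis, with standard errors) of the 10 genes for 5% against control, 1% against control and 5% against 1%; filled points passed an adjusted p of 0.05 and open points did not. Filled points are Gadd45a at 3.48, Gadd45b at 1.44 and Myc at 3.40, all for 5% against control.

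The 1% diet was compared with the same 4 control livers, so the comparisons with control are not independent of each other. No member was called by edgeR, where 0.224% of all genes were. At an unadjusted p below 0.05 there was 1 member, against 11.1% of genes. DESeq2 called 1, which was Myc, where it called 1.93% of all genes. Myc had a log2 fold change of 2.31 ± 0.65 (SE, edgeR adjusted p = 0.192; DESeq2 2.29, adjusted p = 0.0208), and its means were 2.98 ± 1.83 CPM in 1% livers and 0.630 ± 0.208 in control livers (SD, n = 4 each). It was the 1 member with no overlap between these groups, where 1.83% of genes lay wholly above and 2.03% wholly below. For Gadd45a the log2 fold change was 1.29 ± 0.62 (SE, edgeR adjusted p = 0.462), for Gadd45g 1.43 ± 0.68 (0.469) and for Egr1 1.31 ± 0.61 (0.461). The remaining members lay between -1.0 for Fos and 0.70 for Gadd45b.

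Between the oil diets, no member was called by edgeR, where 1.33% of all genes were. At an unadjusted p below 0.05 there were 7 members, against 17.8% of genes. No member separated the 2 oil groups fully, where 4.1% of genes lay wholly above and 3.55% wholly below. Egr1 averaged 2.61 ± 0.924 CPM in 5% livers and 18.0 ± 14.2 in 1% livers (SD, n = 4 each), with a log2 fold change of -2.81 ± 0.65 (SE, edgeR adjusted p = 0.0623). Gadd45a averaged 17.2 ± 10.1 CPM in 5% livers and 3.25 ± 1.74 in 1% livers (SD, n = 4 each), with 2.19 ± 0.53 (SE, edgeR adjusted p = 0.0682). DESeq2 called both, with adjusted p-values of 0.000102 and 0.00153, and Btg2 as well (-1.81 ± 0.57 by edgeR with an adjusted p of 0.137, and 0.0108 by DESeq2). In this comparison DESeq2 called 5.06% of all genes. Without N975, edgeR called 3: Cdkn1a at -3.19 (0.00031), Gadd45a at 2.62 (0.0102) and Egr1 at -3.15 (0.0443). Without the 1% male N972 it called Egr1 alone, at -3.12 (0.0398). Genes called over the whole table for 5% against 1% also shifted, between 8 and 1276 over all settings.

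The 5% male N975 stood apart from the other 5% livers in several of these genes at once. Its Cdkn1a, Gadd45a and Myc values of 58.5, 4.28 and 1.62 lay nearer the controls than those of N987, N988 and N976. Beyond the members, several genes known to respond to fasting were also higher in this animal than in the other 5% livers. Pck1, the rate-limiting enzyme of gluconeogenesis, had 69.0, 277, 1386 and 137 CPM in 5% livers (N987, N988, N975, N976), against 2319, 1226, 1219 and 1543 in control livers. Tat, tyrosine aminotransferase, had 169, 221, 916 and 208 in 5% livers, against 1605, 2219, 1145 and 1799 in control livers. Bcl6, a transcriptional repressor raised by fasting that is also counted among the other p53 targets, had 2.69, 3.17, 62.7 and 6.76 in 5% livers, against 17.4, 11.2, 44.4 and 18.4 in control livers. These 3 genes were chosen after their values were seen. In 10 of the 15 fasting genes tested, N975 was above the other 5% livers, and in 16 of 30 other p53 targets, against 26.3% of all genes; it was below them in 4 and 3 of these genes, against 27.3%. On the other lists, N975 was above in 8 and below in 13 of 29 other immediate early genes, above in 8 and below in 7 of 19 clock genes, above and below in 3 each of 13 CDK inhibitors and G1 cyclins, and above and below in 2 each of 13 CAR targets. Over all genes, 1.53% put N975 apart from its group by Dixon's rule (a gap to the nearest of the 4 livers that takes up most of the group's range), within the range of 0.478% to 6.36% across the 12 livers. By the same rule N975 was apart in 2 of the 10 members, 3 of 15 fasting genes and 3 of 19 clock genes. It was apart in 2 of 30 other p53 targets and 0 of 29 other immediate early genes. The part of these differences in the results above was not tested, other than by the values without N975. Those of the 3 called members without N975 were 3.82 for Gadd45a, 3.79 for Myc and 1.55 for Gadd45b, all called.

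The 1% female N984 stood apart in another way. Its Gadd45g level was 70.9 CPM, where the other 1% livers had 3.16 to 18.4. In the order N983, N984, N971 and N972, the 1% livers had 26.9, 134, 77.8 and 15.9 CPM of Plk3, a stress-induced polo-like kinase and p53 target. Sik1, a kinase induced by cyclic AMP, had 5.69, 35.4, 9.31 and 5.92 CPM in these livers, and Per1, a clock gene that glucocorticoids induce, 20.4, 52.6, 17.2 and 17.1. N984 was the highest 1% liver in all 3, which were chosen after their values were seen. By Dixon's rule, N984 was apart in 4 of 19 clock genes and 2 of 29 other immediate early genes. It was apart in 1 of 30 other p53 targets, 1 of 15 fasting genes and 0 of the 10 members, against 1.25% of all genes. Its library held 6275571 estimated reads, with 1.91% in long noncoding genes. The part of any of these in the Gadd45g value was not tested.

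**Figure D3:**
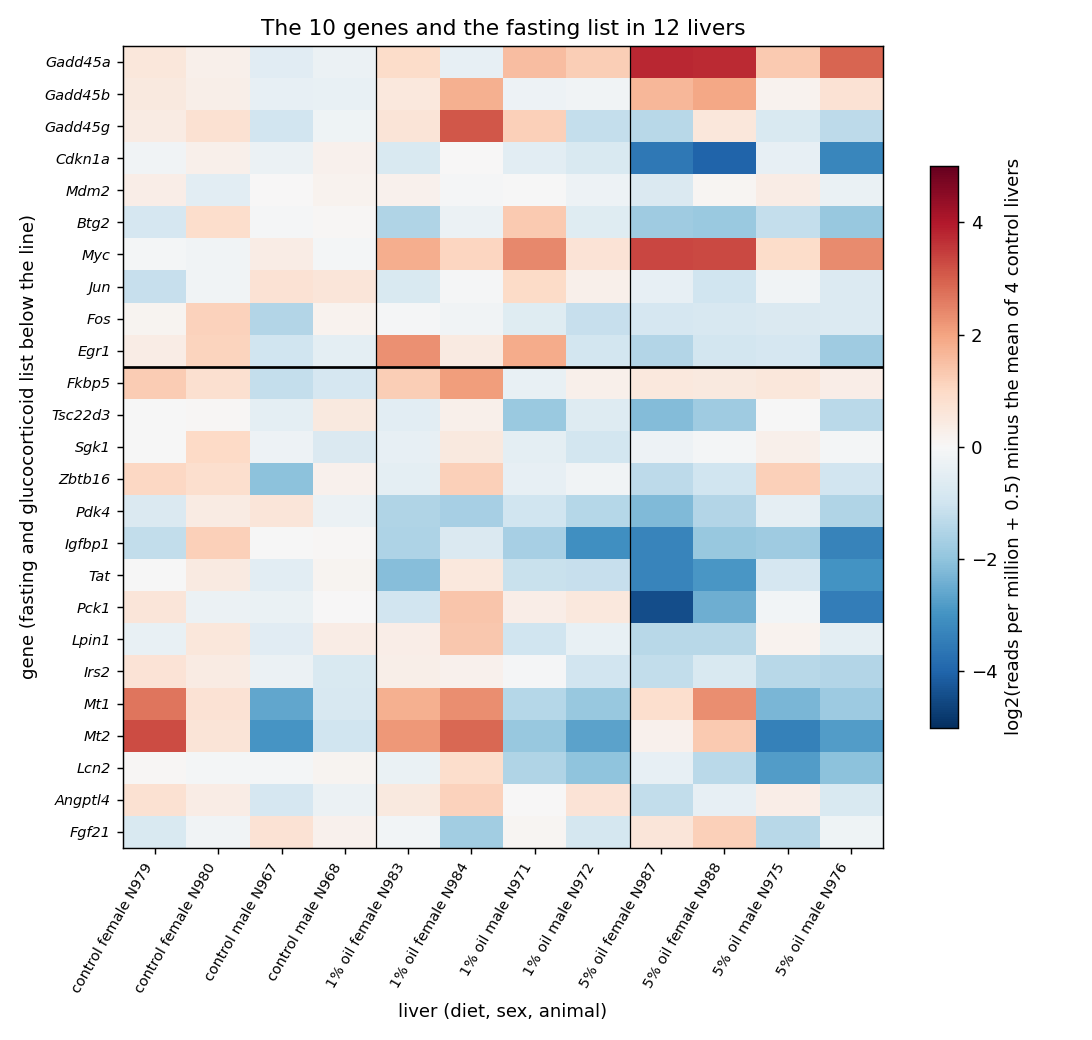
Levels of the 10 genes and of 15 genes of the fasting and glucocorticoid list (rows) in the 12 livers (columns), as log2(CPM + 0.5) minus the mean of the 4 control livers. Gadd45a and Myc are red and Cdkn1a blue in the 5% livers N987, N988 and N976; N975 is paler in these rows and in Tat and Pck1.

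**Figure D4:**
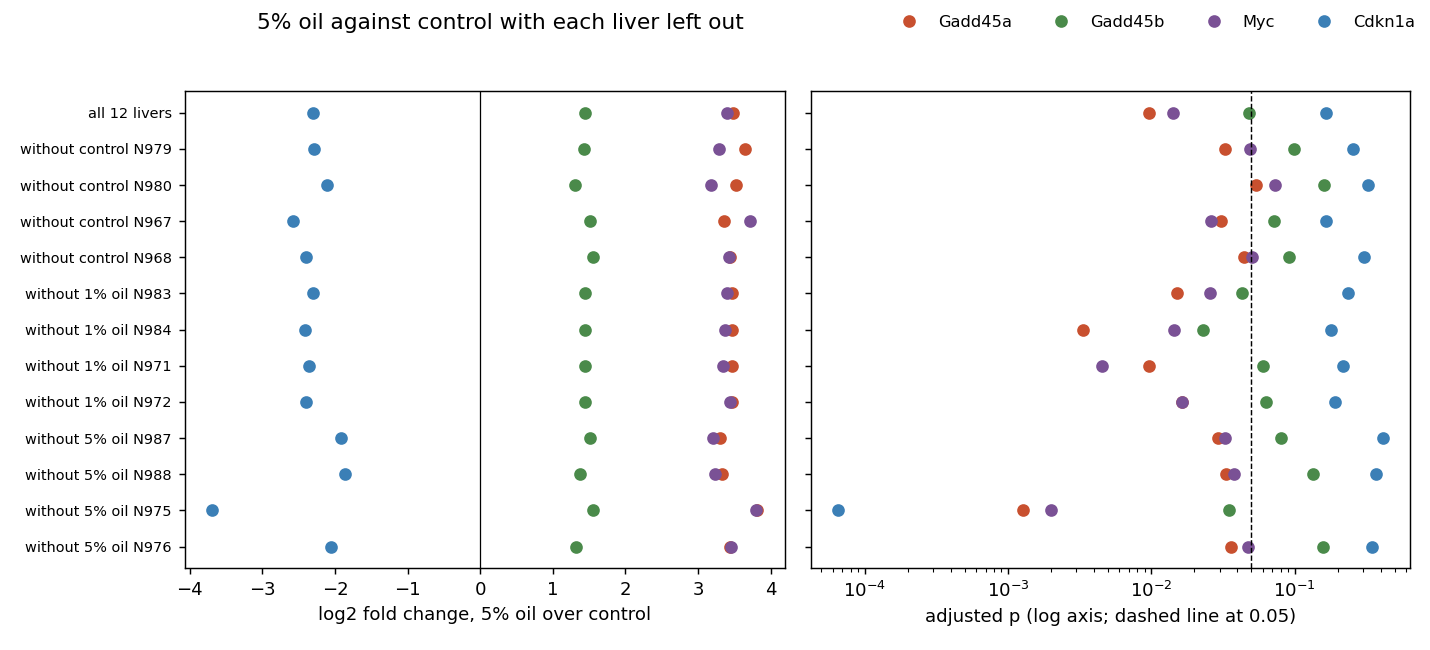
The 5% against control log2 fold change (left) and adjusted p (right, log axis, dashed line at 0.05) of Gadd45a, Gadd45b, Myc and Cdkn1a with all 12 livers and with each liver left out. Fold changes of Gadd45a stay above 3, and the adjusted p of Cdkn1a passes the line only without N975, at 6.5e-05.

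Differences between the sexes were tested in the same fit as diet. Gadd45b was higher in females than in males, with a log2 fold change of 1.48 ± 0.28 (SE, edgeR adjusted p = 0.00658), and Jun was lower in females, with -0.88 ± 0.25 (SE, edgeR adjusted p = 0.0421). Over all genes, 8.94% were called between the sexes, 3.6% higher and 5.34% lower in females. The Jun call was lost without any 1 of 9 of the 12 livers (all but N980, N987 and N976), and both calls were lost when the share of reads in long noncoding genes, between 0.646% and 1.91% by library, entered the model: Gadd45b then had 1.22 (adjusted p = 0.0855) and Jun -0.67 (adjusted p = 0.307).

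No member had a sex difference in the diet response that passed the test, at either dose, and none of the 13814 genes did with edgeR (0 at 5% and 0 at 1%). At 5%, the member with the smallest unadjusted p was Cdkn1a, with a female minus male difference of -2.71 ± 1.01 in the log2 response (SE, unadjusted p = 0.0239, edgeR adjusted p = 0.908). At 1%, it was Gadd45a, with -2.15 ± 0.91 (SE, unadjusted p = 0.0376, edgeR adjusted p = 1). How many of all genes had unadjusted p-values this small is not given here, so these values single out no member. DESeq2 called 0 members for this question at either dose. Within females, 5% against control called Gadd45a at 3.62 ± 0.58, Myc at 4.34 ± 0.80 and Cdkn1a at -3.94 ± 0.79 (SE, edgeR adjusted p = 0.0124, 0.0188 and 0.0402), where 1.85% of genes were called. Within males, no member was called by edgeR, where 0.181% of genes were, and 3 had an unadjusted p below 0.05, against 6.06% of genes. The Gadd45a difference in males was 3.28 ± 0.63 (adjusted p = 0.0955). Each of these fits has 2 livers per diet and sex. Of the 2 males on 5%, N975 had 58.5 CPM of Cdkn1a and N976 had 7.62, against 6.12 and 4.42 in the 5% females.

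The other genes of these pathways were described from lists of named genes. The lists were chosen with earlier results of these data known, so counts on them are a description and no test. Over all genes, an unadjusted p below 0.05 was reached by 14.6% for 5% against control. The share was 11.1% for 1% against control and 17.8% for 5% against 1%. In the same order, DESeq2 called 5.42%, 1.93% and 5.06% of all genes, and edgeR 2.46%, 0.224% and 1.33%. Of 30 other p53 targets, edgeR called 0 in each of the 3 diet comparisons; at an unadjusted p below 0.05 there were 7 for 5% against control, and DESeq2 called 3, all lower. Their median log2 fold change for 5% against control was -0.24, against 0.01 for all genes. Of 13 p53 and MDM2 regulators tested, edgeR called 0 for 5% against control (1 at an unadjusted p below 0.05, and 1 higher by DESeq2). Of 12 GADD45 partners tested, edgeR and DESeq2 both called 0 for 5% against control, and 0 had an unadjusted p below 0.05. For 5% against 1%, 5 of the 13 regulators had an unadjusted p below 0.05 and DESeq2 called 2 higher and 1 lower, and 2 of the 12 partners had an unadjusted p below 0.05 and DESeq2 called 1 lower.

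Of 29 other immediate early genes tested, 2 were called higher and 1 lower on 5%, where 1.19% and 1.27% of all genes were. At an unadjusted p below 0.05 there were 10 of 29, against 14.6% of all genes. DESeq2 called 3 higher and 3 lower, where it called 5.42% of all genes. Btg1, the close relative of Btg2, had 35.9, 31.6, 51.2 and 36.5 CPM in 5% livers, against 94.3, 146, 90.9 and 121 in control livers. The groups did not overlap, and Btg1 had a log2 fold change of -1.56 ± 0.20 (SE, edgeR adjusted p = 0.00122) that was called under every omission of 1 liver. Klf10, a TGF-beta-induced zinc finger factor, had 1.40 ± 0.30 (SE, edgeR adjusted p = 0.0311; lost without N980, N968, N988 or N976), and Rhob, a small GTPase, 0.74 ± 0.18 (SE, edgeR adjusted p = 0.0458; lost under 11 of 12 omissions). Of 13 CDK inhibitors and G1 cyclins tested, Ccng2, which encodes the unconventional cyclin G2, was called lower at -1.20 ± 0.28 (SE, edgeR adjusted p = 0.0423; lost under 10 of 12 omissions). Of 10 genes of the BTG and TOB family with CCR4-NOT, Tob2, an antiproliferative relative of Btg2, was called higher at 0.59 ± 0.14 (SE, edgeR adjusted p = 0.0425; lost under 11 of 12).

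Of 20 MYC targets, 2 were called higher on 5% and none lower, where 1.19% and 1.27% of all genes were. Their median log2 fold change was 0.28. At an unadjusted p below 0.05 there were 8 of 20, against 14.6% of all genes. DESeq2 called 3 higher, where it called 5.42% of all genes. Nop58, a box C/D snoRNP protein, had 0.87 ± 0.19 (SE, edgeR adjusted p = 0.0283; lost under 6 omissions), and Polr1b, an RNA polymerase I subunit, 0.91 ± 0.21 (SE, edgeR adjusted p = 0.038; lost under 5). Of 10 genes of the MYC network tested, edgeR called 0 (3 at an unadjusted p below 0.05, DESeq2 0), and of 15 S phase and mitosis genes, 0 (1 at an unadjusted p below 0.05, DESeq2 0), with a median of -0.35. Over the 9 lists together, with 152 genes tested, edgeR called 0 for 1% against control (19 at an unadjusted p below 0.05, and 1 higher and 2 lower by DESeq2) and 0 for 5% against 1% (38 at an unadjusted p below 0.05, and 6 higher and 6 lower by DESeq2). Over all genes, 11.1% and 17.8% had an unadjusted p below 0.05 in these comparisons, and DESeq2 called 1.93% and 5.06%.

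More genes were called on other lists, where edgeR called 2.46% of all genes for 5% against control (1.19% higher and 1.27% lower). These lists too were chosen with earlier results of these data known. Of 19 circadian clock genes, 8 were called higher and 4 lower on 5%, among them Wee1, the kinase that holds mitosis back, at 3.20 ± 0.50 (SE, edgeR adjusted p = 0.00572), and Bhlhe41, a clock repressor, at 4.99 ± 0.59 (SE, edgeR adjusted p = 0.000872). Bhlhe41 had 0, 0.10, 0.313 and 0.215 CPM in control livers, so its fold is imprecise. Tef, a PAR-domain factor of the clock output, was also called on 1%, at 1.65 ± 0.29 (SE, edgeR adjusted p = 0.0292; lost under 6 of 12 omissions, without the sex term and with the 2 diets alone). Of 15 fasting and glucocorticoid genes, Irs2 and Pdk4 were called lower on 5% (-1.29 ± 0.23 and -1.46 ± 0.33, SE, edgeR adjusted p = 0.0093 and 0.038), and the list's median was -1.16. The Irs2 call held under all 12 omissions and was lost without the sex term, and the Pdk4 call was lost under 9 of 12 omissions. Of 13 CAR targets, 2 were called higher, Gstm3 and Cyp2b10 (2.10 ± 0.34 and 2.54 ± 0.51, SE, edgeR adjusted p = 0.00781 and 0.0231), and Sult1d1 lower (-0.93 ± 0.22, SE, edgeR adjusted p = 0.0453); the median was 0.69. The Gstm3 call held under all 12 omissions, the Cyp2b10 call was lost under 4 and the Sult1d1 call under 8. No marker gene of hepatocytes, Kupffer, endothelial, stellate, bile duct, lymphoid or neutrophil cells was called by edgeR in any diet comparison. DESeq2 called 3 of the 58 tested lower for 5% against control and 2 lower for 1% against control, and 9 and 17 had an unadjusted p below 0.05. Over all genes, DESeq2 called 5.42% and 1.93% in these comparisons, and 14.6% and 11.1% had an unadjusted p below 0.05. For 5% against 1%, 11 of the 58 had an unadjusted p below 0.05, against 17.8% of all genes. DESeq2 called 1 higher and 1 lower, where it called 5.06% of all genes. Of these 11, 7 were among the 10 sinusoidal endothelial markers, with a median of -0.59 and summed levels of 233 to 283 CPM in 5% livers, against 267 to 452 in 1% livers. At 1% against control, 10 of 11 Kupffer markers had an unadjusted p below 0.05, with a median of -0.74 and summed levels of 142 to 393 CPM in 1% livers, against 269 to 565 in control livers. The part of these lists in the values of the members was not tested.

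Across the 12 livers, the 36 pairs of the 9 members other than Cdkn1a were correlated on log2 CPM. Cdkn1a was left out because 3 livers stood apart from the other 9. Gadd45a and Myc were the 1 pair to pass for Pearson's r, with r = 0.847 (permutation p = 0.00068, adjusted 0.0245) and Spearman's rho = 0.783 (permutation p = 0.00382, adjusted 0.0688). Without the 2 livers farthest from the median of Gadd45a, r was 0.679 (permutation p = 0.0297, adjusted 0.178), which no longer passed. Gadd45g and Egr1 had r = 0.689 (permutation p = 0.0119, adjusted 0.143) and rho = 0.881 (permutation p = 0.00021, adjusted 0.00756), with r = 0.827 without the 2 farthest livers. Btg2 and Jun had r = 0.735 (permutation p = 0.00717, adjusted 0.129) and rho = 0.734 (permutation p = 0.00857, adjusted 0.0895). After the means of each diet and sex were taken out, r was 0.682 for Gadd45a and Myc (permutation, adjusted p = 0.17), 0.334 for Gadd45g and Egr1 (adjusted p = 0.614) and 0.911 for Btg2 and Jun (adjusted p = 0.00216). With 2 livers per diet and sex, the deviations within a group mirror each other. The permutation shuffled all 12 as if independent, so these p-values are too small. Whether Btg2 and Jun vary together within groups therefore cannot be decided by this test. Gadd45a and Myc thus no longer passed within groups. The livers share diet and sex groups, so these relations are not free of the group differences.

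**Figure D5:**
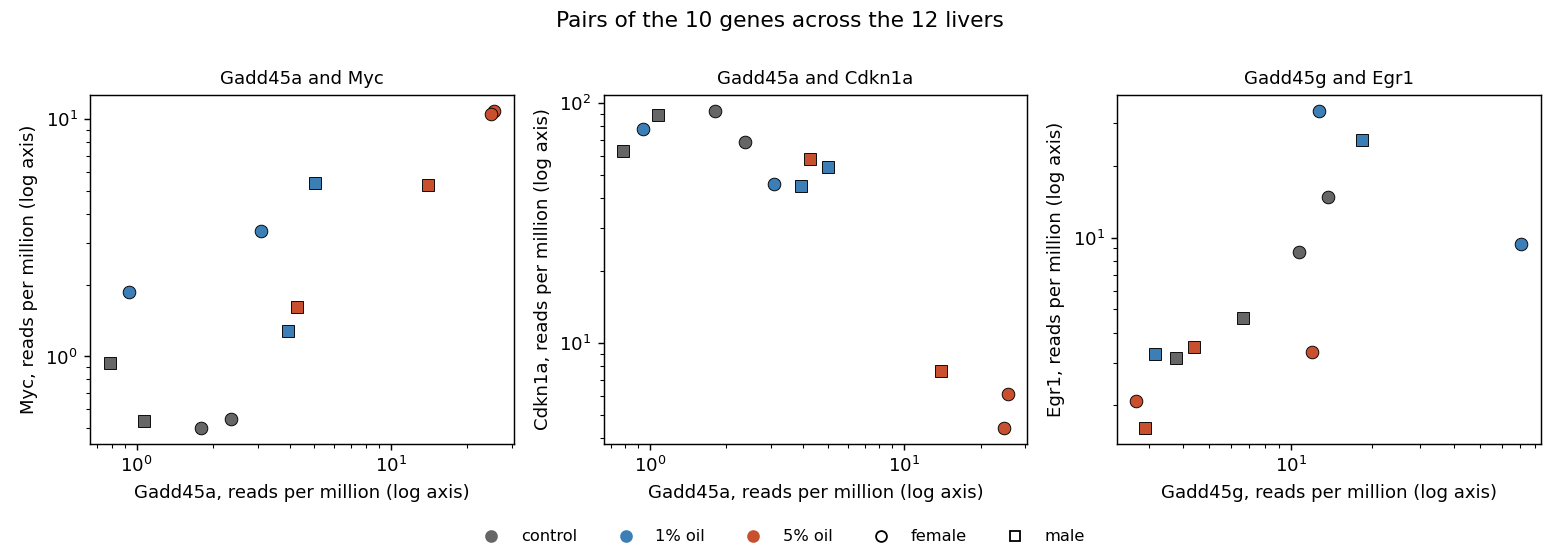
Levels of Gadd45a against Myc, Gadd45a against Cdkn1a and Gadd45g against Egr1 in 12 livers, in CPM on log axes, coloured by diet with circles for females and squares for males. The 5% livers N987, N988 and N976 sit apart in the middle panel, with Gadd45a at 14.0 or above and Cdkn1a at 7.62 or below.

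As a description with no test, the genes whose log2 levels most resembled each member over the 12 livers were listed among genes of adequate level. Myc was nearest to Rhob (r = 0.943), Irf2 (0.928) and Rbm3 (0.922). Gadd45a was nearest to Rnf126 (0.951), F3 (0.924) and Ski (0.912). Gadd45b was nearest to Fmo2 (0.943), Gm20388 (0.93) and Lmnb2 (0.912). Nearest to Gadd45g were Kcna2 (0.911), Ifi213 (0.9) and Zfp788 (0.886). Mdm2 was nearest to Zfp369 (0.943), Wdr13 (0.935) and Gm26822 (0.89). Nearest to Btg2 were Slc46a3 (0.837), Klk1b4 (0.834) and Pglyrp2 (0.833). Jun was nearest to Etnppl (0.932), Dnase2b (0.908) and Pvr (0.902). Nearest to Fos were Selenok (0.886), Cd72 (0.865) and Rcn1 (0.861). Egr1 was nearest to Galnt15 (0.938), Sat1 (0.901) and Slfn5 (0.898). Such a measure over 12 livers of 3 diets mixes diet differences with variation within diets. For Cdkn1a, whose levels fell into separate clusters, none is given.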

How the data were processed

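Poly(A)-selected libraries from a stranded kit were made from livers with an RNA integrity number above 7, per the labels' protocols. The authors deposited estimated counts per gene and per transcript, a CPM table that holds 9 of the 10 members (Fos is not in it), and a table of log2 fold changes with p-values for 261 genes, whose per-liver values have no stated unit and are treated as a score used in no test. The submitters' processing notes name kallisto, edgeR, limma and GRCm39, with no role or version, and whether strand was used in counting is not given in the sources used here. Gene symbols were matched for 48845 of 49398 identifiers.

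Estimated gene counts, 11.7% of them not whole, were rounded, filtered with filterByExpr on 6 diet and sex groups and scaled by TMM. Tests used edgeR 4.0.16 in R 4.3.3 (robust quasi-likelihood fit of all 12 libraries, diet and sex as terms) with Benjamini-Hochberg adjustment over 13814 genes. The dose trend replaced the diet factor by the percentage of oil. Alternatives used DESeq2 1.42.0, limma 3.58.1, other scalings, filters and terms, and each library left out. Standard errors are the log2 fold change over the root of the test's F. Correlations used log2 CPM with a prior count of 2 and 100000 permutations, 2-sided. Promoter windows are RefSeq's on GRCm38.p6; no coordinates of the other build are given. A window was used for 8 of the 10 members, all but Myc and Egr1.

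The members and lists were chosen with earlier results of these data known, and 2 list symbols matched no gene. All 10 members were named, with at most 6 called genes per list and comparison, and the 3 nearest genes per member (mean log2 CPM of at least 1), except for Cdkn1a, whose levels fell into separate clusters. Replicates are separate numbered animals, and p-values measure the spread between them. Depth limits Fos and Myc, with as few as 1 and 3 estimated reads in a control liver. It also limits Gadd45a and Gadd45b, with as few as 5 and 6.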

Additional observations from a re-analysis of the deposited data

Results flagged for a closer look

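Of 30 sets of 4 livers (10 genes in 3 diets), 3 had a liver whose gap to its nearest neighbour was above Dixon's 95% critical value as a share of the group's range, where chance flags about 1 in 20 groups. Over all genes, the share in which a given liver was apart ran between 0.478% and 6.36%. The share of all such sets with a flagged liver is not given here, so 3 of 30 is a description only. Cdkn1a was at 58.5 CPM in the 5% male N975, with the other 5% livers between 4.42 and 7.62, a gap of 0.941 of the range. Btg2 was at 5.44 CPM in the same liver, against 3.14 to 3.5 in the other 5% livers, a gap of 0.842 of the range. Myc was at 0.94 CPM in the control male N967, with the other control livers at 0.50 to 0.54, a gap of 0.9 of the range; these control values rest on 3 to 6 estimated reads. N975 is thus flagged in 2 of the 10 genes, where it was apart in 1.53% of all genes. N967 is flagged in 1 of the 10, where it was apart in 1.17% of all genes. Other genes that stood apart in this liver are given above, and their part in these values was not tested.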

How the results depend on the processing

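No paired analysis was possible because no animal number is shared between diets. Counts of members called changed with the settings as follows, edgeR unless another tool is named. For 5% against control, 3 were called (2.46% of all genes), 6 without a filter on low counts (3.98%), 5 with DESeq2 (5.42%), 2 to 4 under 9 other settings, and 0 to 4 with each liver left out (0 without N980, 1 without N968, 4 without N975). For 1% against control, 0 were called (0.224%), 4 without the filter (2.56%) and 1 with DESeq2 (1.93%). For 5% against 1%, 0 were called (1.33%), 6 without the filter (5.02%) and 3 with DESeq2 (5.06%), and 0 to 3 with each liver left out. For female against male, 2 were called (8.94%), 5 without the filter (9.35%), 1 with upper quartile factors, 1 with at least 50 reads in 4 libraries, 1 with limma trend on the deposited CPM, 0 with the long noncoding share in the design, and 1 to 2 with each liver left out. For the dose trend, 1 was called (2.23%), 7 without the filter (4.36%), 5 with DESeq2 (5.31%), 4 with limma voom, 4 with limma trend, 2 with the long noncoding share, and 1 to 4 with each liver left out. For the sex difference in the response, 0 were called at either dose, and 1 at each without the filter (0.902% of genes at 5% and 0.429% at 1%). The filter of at least 50 reads in 4 libraries left Gadd45b and Fos untested, so neither could be called under it in any comparison. The 1 correlated pair became 0 without the 2 farthest livers. Where no share of all genes is given, the genes called over the whole table shifted as well, over the ranges given below. A shift in these counts is therefore not a result about the members alone. Counts without the filter need care, because adjusted p-values fell steeply there. For Cdkn1a in 5% against control, the edgeR adjusted p was 3.56e-20 without the filter and 0.165 with it. The cause of these shifts was not tested.

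The log2 fold change of Mdm2 for 5% against control turned to 0.015 with limma trend and ran between -0.32 and 0.056 with each liver left out; for 1% against control it was 0.029 with limma trend and -0.21 to 0.098; for 5% against 1% it was 0.28 with the long noncoding share and -0.25 to 0.12. Btg2 for 1% against control was 0.25 with the long noncoding share and -0.91 to 0.43 with each liver left out. Jun for 1% against control was -0.00043 with limma voom and -0.15 to 0.20. None of these values passed the test. Called genes over the whole table for 5% against control numbered 340, and 107 to 1011 over the alternatives; for 1% against control 31, and 10 to 649; for 5% against 1% 184, and 8 to 1276; for the dose trend 308, and 80 to 1108; for female against male 1235, and 327 to 2375.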
